A study of Mus musculus with 12 samples.

Results

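The genes described here are 36 mouse genes of cholesterol and fatty acid synthesis, together with the regulators that switch them on. They were taken by symbol from a list of the pathway, and all 36 were found among the 27179 genes of the count table. The list was chosen by pathway membership, but with results of these data already known, among them the low Fasn values of dTAG-13-treated cells against control. Values of that comparison are therefore given as a description. Its calls are counted and shown, but no p-value of it is printed and no conclusion rests on them.

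The cells were MC38-idAdpgkG, a derivative of the C57BL/6 mouse colon carcinoma line MC38. Every group carried the same stable construct, a doxycycline-inducible, degradable Adpgk(R304M) fused to turboGFP, and grew in medium with 10% FBS. Every group also received 20 ng/mL mouse interferon gamma (mIFNg) for 51 h. The control group received nothing else. The doxycycline group also received 1 µg/mL doxycycline for 51 h, which switches the construct on. The dTAG-13 group received 1 µM dTAG-13 for the last 3 h, after 48 h of mIFNg, and the doxycycline plus dTAG-13 group received both agents on that schedule. dTAG-13 is a small molecule that brings proteins carrying a degron tag to a ubiquitin ligase. Each group had 3 poly(A) RNA libraries, and the labels call them technical replicates of 1 biological sample, so every p-value below measures the spread between libraries only. Because the cells were a single established line, no group tells how another cell line would respond.

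Cells make cholesterol from acetyl-CoA through mevalonate, isoprenoids, squalene and lanosterol, and make fatty acids from the same acetyl-CoA through malonyl-CoA. Most genes of these pathways are targets of the sterol regulatory element binding proteins, encoded by Srebf1 and Srebf2. These factors are held in the endoplasmic reticulum by Scap and the Insig proteins when sterols are plentiful, and are carried to the Golgi and cut free when sterols run low. Dividing tumour cells draw on both pathways for membrane lipid.

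The libraries held 22165538 to 32809573 counts, and 12910 genes passed the filter on low counts, all 36 lipid genes among them. Adpgk, which the counts cannot split into transgene and endogenous gene, was at 161 ± 2.49 CPM (mean ± SD, n = 3) in control and 1338 ± 20.1 CPM in doxycycline cells. It was at 1369 ± 15.7 CPM with both agents and 181 ± 4.18 CPM with dTAG-13 alone. CPM is the normalised read count, a gene's counts relative to the TMM-scaled size of its library. The 8 epithelial markers checked, which include Krt8, Epcam and Cdh1, were each under 1 CPM on average and summed to 0.0628 to 0.712 CPM per library. The mesenchymal genes Vim, Cdh2 and Zeb1 summed to 1076 to 1623 CPM, and the 5 leukocyte markers to at most 0.1 CPM. The 3 fibroblast markers summed to 153 to 203 CPM, nearly all of it Pdgfra, which was at 186 to 195 CPM with doxycycline and 146 to 160 CPM in the other groups. Its part in the lipid gene values was not tested. The labelled carcinoma cell type was therefore without its epithelial keratin and adhesion markers. Adipocyte and hepatocyte markers, which would mark lipid-making tissue, were each under 1 CPM on average.

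Promoter windows are shown for the genes with the largest fold changes to dTAG-13 in doxycycline-treated cells, to show what sequence lies at the starts of genes that moved in opposite directions. Fasn and Acaca had the most negative values, and Pmvk and Insig1 the most positive. Hmgcs1 is added because, of the genes with a window, it alone held the exact letters searched for the sterol response element core. It was picked after that match was seen. Each window runs from 250 bases before to 50 bases after a RefSeq start site (GRCm38.p6), 5′ to 3′ on the gene's strand. Capitals mark a match to CCAAT on either strand (read ATTGG on the other) or, in Hmgcs1, also to the sterol response element core TCACNCCAC.
Fasn: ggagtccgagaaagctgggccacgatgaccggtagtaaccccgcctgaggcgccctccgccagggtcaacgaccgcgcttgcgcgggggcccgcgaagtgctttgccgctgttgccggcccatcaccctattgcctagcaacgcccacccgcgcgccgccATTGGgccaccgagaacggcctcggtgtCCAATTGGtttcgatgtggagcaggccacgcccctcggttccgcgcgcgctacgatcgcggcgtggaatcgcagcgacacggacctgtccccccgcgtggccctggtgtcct
Acaca: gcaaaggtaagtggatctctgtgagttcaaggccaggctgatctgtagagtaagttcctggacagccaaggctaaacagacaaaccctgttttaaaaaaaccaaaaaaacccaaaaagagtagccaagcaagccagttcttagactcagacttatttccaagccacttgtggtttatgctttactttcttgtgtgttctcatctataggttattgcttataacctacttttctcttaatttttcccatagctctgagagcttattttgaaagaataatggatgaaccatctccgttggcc
Pmvk: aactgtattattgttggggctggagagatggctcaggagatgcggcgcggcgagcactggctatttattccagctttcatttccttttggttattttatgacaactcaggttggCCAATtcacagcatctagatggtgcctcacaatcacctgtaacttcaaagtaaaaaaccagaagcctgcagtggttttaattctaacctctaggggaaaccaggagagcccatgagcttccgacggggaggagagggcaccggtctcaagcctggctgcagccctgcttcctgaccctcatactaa
Insig1: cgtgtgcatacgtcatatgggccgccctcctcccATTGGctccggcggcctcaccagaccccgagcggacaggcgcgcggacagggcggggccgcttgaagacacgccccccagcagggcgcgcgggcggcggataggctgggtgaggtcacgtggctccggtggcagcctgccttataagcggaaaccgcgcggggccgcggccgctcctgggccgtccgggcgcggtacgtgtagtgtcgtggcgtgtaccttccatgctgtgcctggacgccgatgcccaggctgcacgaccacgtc
Hmgcs1: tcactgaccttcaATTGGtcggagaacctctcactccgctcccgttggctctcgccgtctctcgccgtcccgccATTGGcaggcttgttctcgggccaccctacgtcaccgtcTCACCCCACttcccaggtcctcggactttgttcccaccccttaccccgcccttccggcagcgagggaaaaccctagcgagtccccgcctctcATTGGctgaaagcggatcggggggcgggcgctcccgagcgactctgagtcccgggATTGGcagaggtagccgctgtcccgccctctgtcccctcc
The Fasn window is chr11:120824498-120824797 on the minus strand, and its CCAATTGG holds a CCAAT and an overlapping ATTGG. The Acaca window is chr11:84195188-84195487 on the plus strand, at a start inside the gene, which spans chr11:84129635-84401651. Pmvk has another window, chr3:89459321-89459620, with none of the letters searched. The Pmvk window shown is chr3:89454291-89454590, the Insig1 window chr5:28071162-28071461 and the Hmgcs1 window chr13:119690101-119690400, all on the plus strand. The reference table held a window for 29 of the 36 genes. Of these, 24 had a CCAAT match in at least 1 window, against 41.06% of the 27025 genes in the table. Hmgcs1 was the only 1 of 29 with TCACNCCAC, which 1.44% of all genes matched. In Hmgcs1 the matched letters TCACCCCAC begin 137 bases before the start (position -137). The windows shown for Fasn, Pmvk, Insig1 and Hmgcs1 thus shared the CCAAT letters although their fold changes to dTAG-13 had different signs, and the Acaca window had none of the letters searched. A match is a string of letters, and these data do not show what binds it. Nor do they show that a window without the exact letters lacks a sterol response element.

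In control cells the genes at ranks 1 to 5 of the set by level were fatty acid genes. Not all of that branch was high, with Elovl6 at rank 19 and Acaca at rank 24 of 36. Per kilobase of transcript, Scd2, a stearoyl-CoA desaturase that puts the double bond into saturated fatty acids, was at 380.8 ± 10.5 CPM per kb. Acly, which makes cytosolic acetyl-CoA from citrate, was next at 125.7 ± 0.839 CPM per kb. The desaturases Fads1 (99.9 ± 1.31 CPM per kb) and Scd1 (87.2 ± 2.09 CPM per kb) and fatty acid synthase, Fasn (70.1 ± 1.21 CPM per kb), followed. Squalene epoxidase, Sqle, and the C4-methyl sterol oxidase Msmo1 led the sterol genes at 52.6 ± 0.540 and 51.1 ± 2.22 CPM per kb, and did not differ beyond their spread. At the low end were Acss2, which makes acetyl-CoA from acetate (2.94 ± 0.191 CPM per kb), and the sterol reductase Tm7sf2 (0.872 ± 0.306 CPM per kb). Tm7sf2 rested on 16 to 53 reads per library and Acss2 on 196 to 312, so Tm7sf2 was the thinly measured gene of the set.

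Summed over the 36 genes, control libraries held 6227 ± 80.4 CPM and doxycycline libraries 6254 ± 18.7 CPM. The sum was 5321 ± 51.8 CPM with dTAG-13 and 4859 ± 79.8 CPM with both agents. Scd2 alone gave 33.4% of the sum in control, 37.1% with doxycycline, 34.6% with dTAG-13 and 33% with both agents. Fasn gave 11.3% in control, 9.16% with doxycycline, 5.33% with dTAG-13 and 6.37% with both agents. The share of Fasn was therefore lower in both groups that received dTAG-13. The 11 fatty acid genes summed to 4712 ± 89.9 CPM in control and 3838 ± 45.0 CPM with dTAG-13. Their sum was 4768 ± 24.2 CPM with doxycycline and 3442 ± 76.4 CPM with both agents. The 8 mevalonate genes summed to 271 ± 7.92 CPM in control and 281 ± 4.81 CPM with dTAG-13. Their sum was 277 ± 1.83 CPM with doxycycline and 281 ± 7.04 CPM with both agents. In these bulk samples fewer cells making a transcript and less of it per cell cannot be told apart.

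In doxycycline-treated cells, much of the fatty acid branch was lower after 3 h of dTAG-13, and the sterol branch differed in both directions. This comparison shares no library with dTAG-13 against control. At an edgeR adjusted p under 0.05 over all 12910 genes, 8 of the 36 genes were higher and 18 lower, and 10 did not pass. Over all genes tested, 30.7% were called higher and 33.4% lower, so calls were common everywhere. The median log2 fold change was -0.11 for the 36 genes and 0.003 for all genes. By role, 10 of 11 fatty acid genes fell and none rose, with a median log2 fold change of -0.26. In the mevalonate branch 4 of 8 rose and 1 fell, and from squalene to cholesterol 3 of 11 rose and 4 fell. Of the 6 genes for regulators and the sterol carrier, 1 rose and 3 fell. The 2 groups of libraries did not overlap for 26 of the 36 genes, and for 67.2% of all genes tested.

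**Figure D1:**
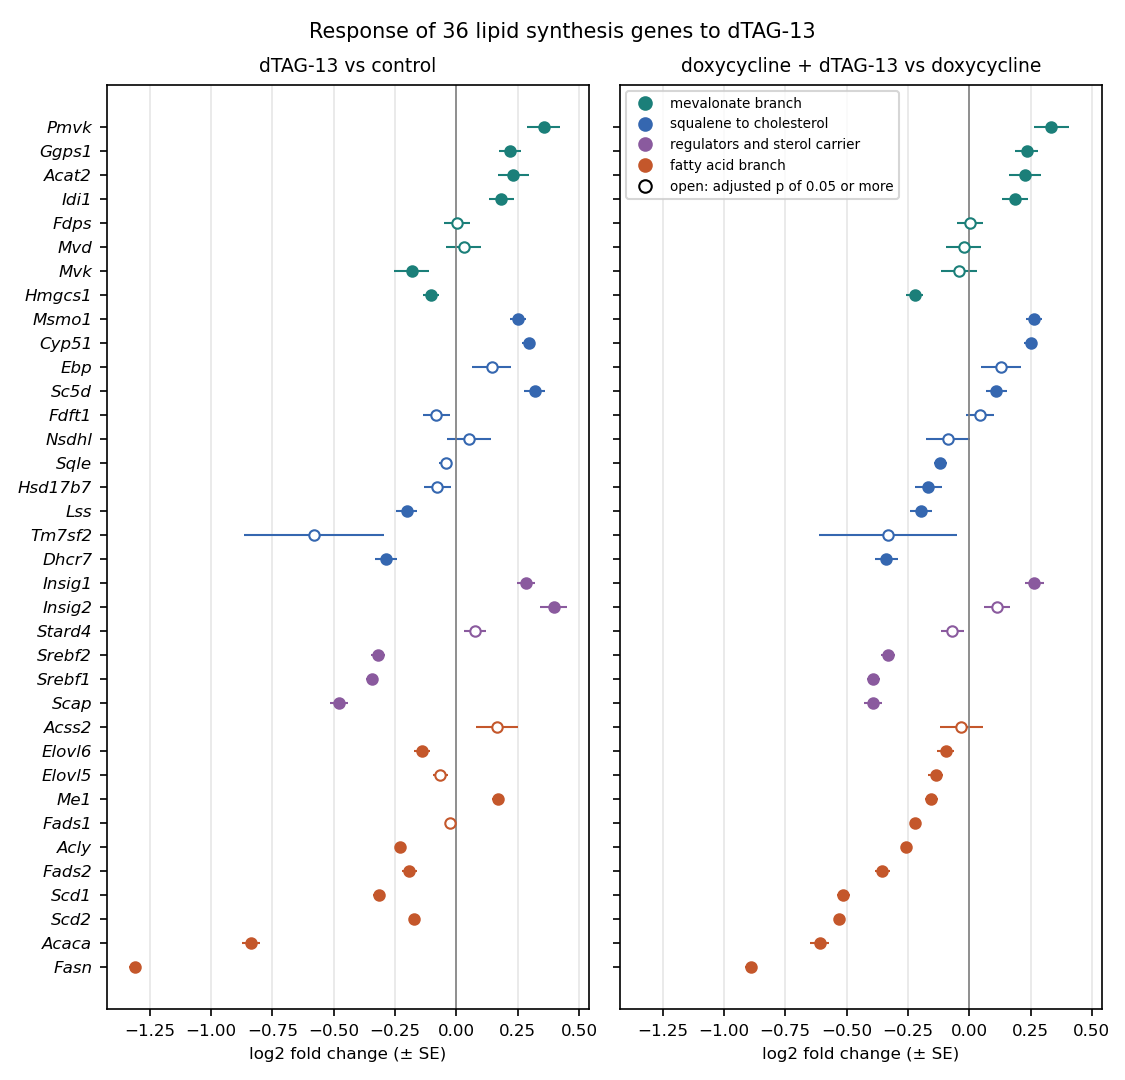
Log2 fold change with its standard error for each of the 36 genes in dTAG-13 against control (left, description only) and doxycycline plus dTAG-13 against doxycycline (right), coloured by role. Open circles had an edgeR adjusted p of 0.05 or more, and nothing is read from open or filled circles on the left. Fasn has the most negative value in both panels, -1.31 and -0.89.

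Transcript length moved with the dTAG-13 fold changes, and its part in them was not tested beyond a fit that removes length and GC content. Across the 11745 tested genes with a known length, Spearman's rho between length and log2 fold change was -0.583 in doxycycline-treated cells and -0.444 without doxycycline. Over the 36 lipid genes it was -0.548 and -0.43. These are descriptions across genes, which share libraries. In doxycycline-treated cells the median log2 fold change ran from 0.37 in the shortest eighth of genes to -0.38 in the longest, transcripts of 6241 nt or more. Fasn (10050 nt) and Acaca (9513 nt) are the longest of the set, and Pmvk (1194 nt) is the shortest. After the correction rho over the 36 genes was -0.01, and 7 genes were called higher and 16 lower, where 24.3% of all genes were higher and 29.2% lower. The fatty acid branch then had 9 genes lower and 1 higher, with a median of -0.20. In the mevalonate branch 2 were then higher and 2 lower, with a median of -0.012, and from squalene to cholesterol 3 were higher and 3 lower. Corrected values are given with the genes of this comparison described next.

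**Figure D2:**
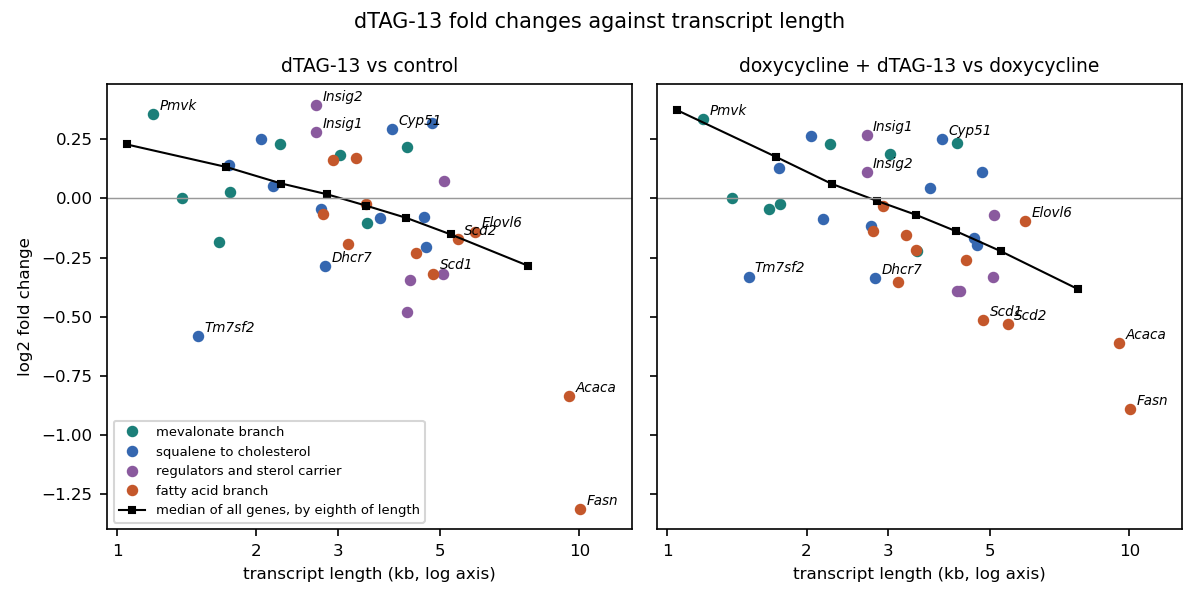
Log2 fold change to dTAG-13 against transcript length (kb, log axis) for the 36 genes, without doxycycline (left) and with it (right). The black line joins the medians of all genes by eighth of length, which fall from 0.37 to -0.38 on the right, and Fasn and Acaca lie below the end of the line.

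Fasn builds palmitate from malonyl-CoA and acetyl-CoA, and had the largest fall. It was read at 573, 580 and 565 CPM with doxycycline and at 302, 322 and 304 CPM with doxycycline plus dTAG-13. Every library with dTAG-13 lay far below every library without it. The log2 fold change was -0.89 ± 0.025 (SE), to 0.54 of the doxycycline level (edgeR adjusted p = 2.03e-28). With the length and GC correction the fall was smaller, at -0.31 (adjusted p = 7.37e-16). Acaca encodes acetyl-CoA carboxylase, which makes the malonyl-CoA that Fasn uses. It was at 80.4, 76.9 and 77.9 CPM with doxycycline and 49.8, 53.1 and 51.1 CPM with both agents, again without overlap. It fell by 0.61 ± 0.037 on the log2 scale (adjusted p = 8.23e-18), and its corrected value was -0.17 (adjusted p = 0.00011). Acaca overlaps Tada2a by 10 bases in the annotation.

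Both stearoyl-CoA desaturases fell by a similar amount. Scd2 was at 2326, 2313 and 2314 CPM with doxycycline and 1590, 1651 and 1569 CPM with both agents. Scd1 was at 426, 430 and 417 CPM and at 286, 310 and 295 CPM in the same groups. Neither gene had a library of one group inside the range of the other. The log2 fold change was -0.53 ± 0.020 for Scd2 (adjusted p = 7.26e-24) and -0.51 ± 0.025 for Scd1 (adjusted p = 6.98e-21). Corrected for length and GC, they were -0.26 and -0.34. The Scd2 to Scd1 ratio per kilobase was 4.84 ± 0.0772 with doxycycline and 4.78 ± 0.115 with both agents. The genes are close paralogs, so reads may have been shared between them by the counting.

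Fads1 and Fads2 are the delta-5 and delta-6 desaturases of polyunsaturated fatty acids. Fads2 fell by 0.35 ± 0.030 (adjusted p = 1.79e-13, corrected -0.25) from 131, 129 and 128 CPM to 101, 102 and 101 CPM. Fads1 fell by 0.22 ± 0.024 (adjusted p = 1.05e-10, corrected -0.12), and Acly by 0.26 ± 0.021 (adjusted p = 4.2e-14). Acly was at 499, 486 and 498 CPM with doxycycline and 407, 419 and 414 CPM with both agents. Neither Fads2 nor Acly overlapped between the groups. The corrected value of Acly was much smaller, at -0.053 (adjusted p = 0.019). Me1, the malic enzyme that supplies NADPH, fell by 0.15 ± 0.025 (corrected -0.20). The elongase Elovl5 fell by 0.14 ± 0.032, and by 0.24 with the correction. The elongase Elovl6 had a log2 fold change of -0.096 ± 0.035 (adjusted p = 0.0149) that turned to 0.094 with the correction (adjusted p = 0.0166), so its direction rests on that choice. The Elovl6 libraries of the groups overlapped, and its call was also lost with DESeq2 (-0.086), with library size as the only scaling (-0.076) and without doxycycline plus dTAG-13 replicate 2 (-0.072). Acss2 did not pass the test, at -0.032 ± 0.088.

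Among the regulators, the genes for the factors and for Scap fell and Insig1 rose. Srebf1 was at 192, 195 and 198 CPM with doxycycline and 149, 151 and 147 CPM with both agents. Srebf2 was at 181, 176 and 181 CPM and at 140, 149 and 139 CPM. Scap, the escort protein that carries both factors to the Golgi, was at 95.2, 104 and 91.6 CPM and at 74.3, 76.8 and 70.5 CPM. All 3 genes were lower in every library with both agents than in any doxycycline library. The log2 fold changes were -0.39 ± 0.026 for Srebf1 (adjusted p = 1.42e-16), -0.33 ± 0.028 for Srebf2 (adjusted p = 1.36e-13) and -0.39 ± 0.038 for Scap (adjusted p = 8.31e-12). Their transcripts are 4227 to 5077 nt long, and the corrected values were -0.10 for Srebf1, 0.032 for Srebf2 (adjusted p = 0.303) and -0.10 for Scap. The fall of Srebf2 was thus lost, and its sign turned, once length and GC were removed.

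Insig1 and Insig2 encode the anchors that hold Scap in the endoplasmic reticulum, and Insig1 is itself a target of the factors. Insig1 was at 71.6, 70.6 and 75.9 CPM with doxycycline and 86.6, 83.6 and 91.8 CPM with both agents. It rose by 0.27 ± 0.038 (adjusted p = 6.84e-08), and the correction left it at 0.23. Insig2 was at 27.2, 25.8 and 25.0 CPM and at 27.9, 28.3 and 28.2 CPM, a log2 fold change of 0.11 ± 0.055 that did not pass (adjusted p = 0.0675, corrected 0.029). The Insig2 libraries of the groups did not overlap, although they lay close together. Stard4, which carries cholesterol between membranes, had a log2 fold change of -0.069 ± 0.046 and did not pass (adjusted p = 0.185). Insig1 lies within the non-coding gene Gm35223, and Srebf1 overlaps Rai1 by 114 bases. The strand setting of the counting is not given in the sources used here, so reads of such pairs may be mixed.

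Early mevalonate genes moved in opposite directions. Hmgcs1, which condenses acetyl-CoA with acetoacetyl-CoA, was at 90.1, 89.8 and 93.7 CPM with doxycycline and 79, 76.9 and 78.5 CPM with both agents. It fell by 0.22 ± 0.034 (adjusted p = 3.42e-07), and by 0.30 with the correction. Pmvk, the phosphomevalonate kinase, was at 14.8, 14.0 and 15.0 CPM and at 17.4, 19.8 and 18.0 CPM. Its libraries with both agents were all above those with doxycycline, and it rose by 0.33 ± 0.071 (adjusted p = 7.23e-05). The correction left Pmvk at 0.13, no longer past the threshold (adjusted p = 0.108). Acat2, which makes acetoacetyl-CoA, rose by 0.23 ± 0.065 (adjusted p = 0.00235, corrected 0.15), and Ggps1, which makes geranylgeranyl diphosphate, by 0.23 ± 0.046 (adjusted p = 2.13e-05, corrected 0.17). Idi1, the isopentenyl diphosphate isomerase, rose by 0.19 ± 0.052 (adjusted p = 0.00175), and its corrected value was 0.033 (adjusted p = 0.616). Fdps, Mvk and Mvd had log2 fold changes from -0.043 to 0.003 and did not pass. Fdps, the farnesyl diphosphate synthase, has a short transcript, and its corrected value was -0.19 (adjusted p = 0.000955). Acat2 overlaps the pseudogene Gm20591.

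After squalene, genes of neighbouring steps also differed in direction. Cyp51, the lanosterol demethylase, rose by 0.25 ± 0.026 (adjusted p = 6.55e-11) from 136, 132 and 135 CPM to 163, 157 and 160 CPM. Its corrected value was 0.30, so its rise was no smaller without the length trend. Msmo1, the next oxidase, was at 92.3, 92.6 and 97.0 CPM with doxycycline and 112, 113 and 113 CPM with both agents. Its groups did not overlap, and it rose by 0.27 ± 0.032 (adjusted p = 1.96e-09), with a corrected value of 0.058 (adjusted p = 0.115). Sc5d, the lathosterol desaturase, was at 41.1, 40.8 and 39.8 CPM and at 44.2, 44.8 and 42.6 CPM. It rose by 0.11 ± 0.043 (adjusted p = 0.0233), a call lost when any of 6 single libraries was left out. Its corrected value was 0.17 (adjusted p = 0.000568). Dhcr7, the last reductase on the way to cholesterol by one route, fell by 0.34 ± 0.046 (adjusted p = 3.07e-08), and by 0.30 with the correction.

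Sqle was at 141, 135 and 139 CPM with doxycycline and 127, 128 and 128 CPM with both agents. It fell by 0.12 ± 0.027 (adjusted p = 0.000231, corrected -0.13), a small change that was clear of the spread between libraries. Lss, the cyclase that makes lanosterol, was at 53.4, 52.3 and 56.5 CPM and at 49.2, 44.2 and 48.1 CPM. It fell by 0.20 ± 0.046 (adjusted p = 0.000233), but its corrected value was 0.036 (adjusted p = 0.536). The sterol ketoreductase Hsd17b7 fell by 0.17 ± 0.057 (adjusted p = 0.0101), with a corrected value of -0.098 (adjusted p = 0.137). Hsd17b7 lost its call without doxycycline replicate 3 or without doxycycline plus dTAG-13 replicate 1. The squalene synthase gene Fdft1 was at 30.1, 32.3 and 32.5 CPM and at 35.5, 31.3 and 31.3 CPM, which overlap. It had a log2 fold change of 0.044 ± 0.056, and it overlaps Ctsb by 774 bases. Fdft1 passed with the correction, at 0.16 (adjusted p = 0.0142). Nsdhl, Ebp and Tm7sf2 also did not pass, and with the correction Nsdhl was called lower, at -0.25 (adjusted p = 0.0143). Tm7sf2 rested on 16 to 53 reads per library, so a change such as its -0.33 ± 0.28 was not detectable at this depth.

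**Figure D3:**
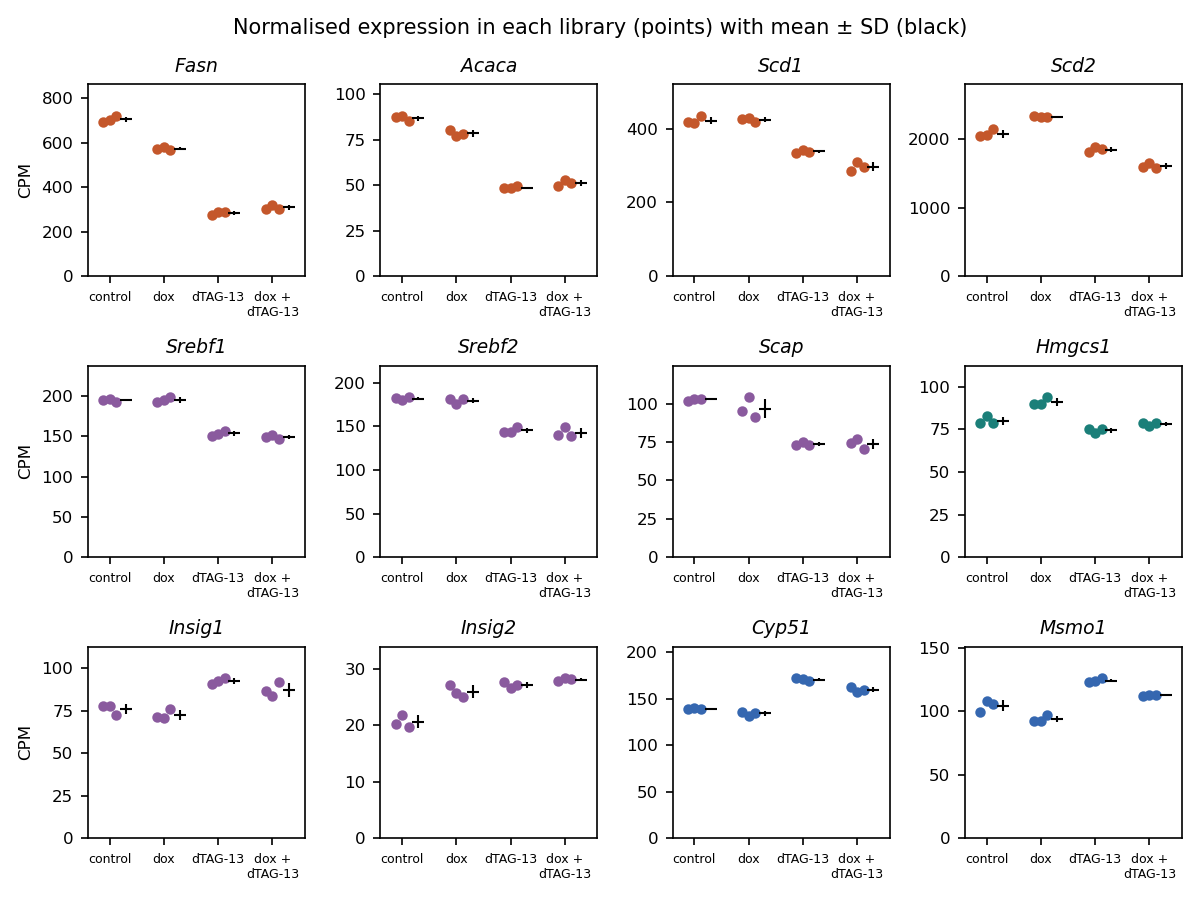
Normalised read count (CPM, axes from 0) of 12 genes in each of the 12 libraries, as points coloured by role, with the group mean ± SD in black. Fasn and Acaca are low in all 6 libraries with dTAG-13, whereas Insig1, Cyp51 and Msmo1 are high in those libraries.

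Without doxycycline, dTAG-13 against control is the comparison whose Fasn value was known when the genes were listed. By the same threshold 10 of the 36 genes were higher and 14 lower, where 30% of all genes were higher and 32.1% lower. The groups did not overlap for 25 of the 36 genes, and for 65.5% of all genes tested. Nothing is read from these counts. Fasn was at 693, 702 and 717 CPM in control and 273, 288 and 290 CPM with dTAG-13, a log2 fold change of -1.31 ± 0.025. Acaca was at 87.3, 87.7 and 85.1 CPM and at 48.2, 48.2 and 49.3 CPM, a log2 fold change of -0.84 ± 0.036. The next most negative value was that of Tm7sf2, at -0.58 ± 0.28, whose error reaches that of Acaca. Corrected for length and GC, Fasn was at -0.80, Tm7sf2 at -0.65 and Acaca at -0.47. Tm7sf2 was at 1.41, 0.805 and 1.70 CPM and at 0.835, 0.740 and 1.03 CPM, which overlap.

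Insig2 was at 20.3, 21.9 and 19.7 CPM in control and 27.6, 26.6 and 27.2 CPM with dTAG-13, the largest positive value of the set at 0.40 ± 0.055. Pmvk was at 16.2, 16.4 and 14.7 CPM and at 21.8, 19.0 and 19.9 CPM, a log2 fold change of 0.36 ± 0.068. Sc5d was at 39.0, 39.9 and 39.5 CPM and at 47.7, 50.7 and 49.1 CPM, a value of 0.32 ± 0.042. In all 3 genes the dTAG-13 libraries lay above the control libraries. Insig1 was at 77.6, 77.7 and 72.5 CPM in control and 90.6, 92.6 and 94.1 CPM with dTAG-13 (0.28 ± 0.037). Srebf1 (-0.34 ± 0.026), Srebf2 (-0.32 ± 0.028) and Scap (-0.48 ± 0.037) were lower with dTAG-13, at corrected values of -0.096, -0.010 and -0.23. Scd1 was at 418, 414 and 433 CPM in control and 334, 343 and 337 CPM with dTAG-13, a value of -0.32 ± 0.025. Scd2, at 2037, 2052 and 2143 CPM in control and 1806, 1876 and 1849 CPM with dTAG-13, had -0.17 ± 0.020, which turned to 0.039 with the correction. Hmgcs1 was at 78.5, 82.7 and 78.8 CPM in control and 75.3, 72.7 and 75.3 CPM with dTAG-13 (-0.10 ± 0.034). Sqle, at 146, 146 and 143 CPM and at 140, 142 and 140 CPM, had -0.044 ± 0.027. With the correction Hmgcs1 was at -0.23 and Sqle at -0.081, further below control than before.

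Of the 36 genes, 22 were called in both dTAG-13 comparisons, and 21 of these (95.5%) had the same sign, 8 higher and 13 lower. Over all genes tested, 6446 were called in both and 96.2% had the same sign, a similar share. Me1 was the exception, with 0.17 ± 0.025 without doxycycline and -0.15 ± 0.025 with it. Me1 was at 159, 158 and 162 CPM in control and 181, 179 and 179 CPM with dTAG-13, and at 178, 181 and 178 CPM with doxycycline and 161, 159 and 164 CPM with both agents. Libraries with either agent alone were thus high, and those with neither or both were low.

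**Figure D4:**
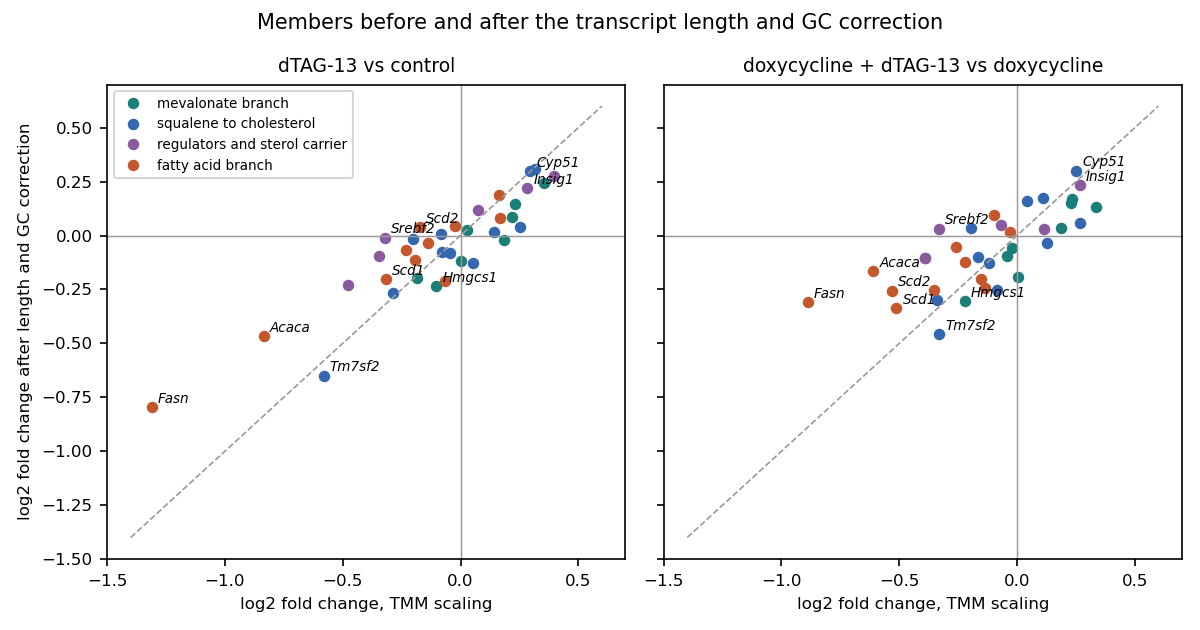
Log2 fold change to dTAG-13 of the 36 genes after the length and GC correction (vertical axis) against the uncorrected value (horizontal axis), without doxycycline (left) and with it (right). The dashed line marks equal values. Fasn moves from -1.31 to -0.80 and from -0.89 to -0.31, while Cyp51 stays at 0.29 to 0.30 on the left and goes from 0.25 to 0.30 on the right.

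Doxycycline alone, which induced the Adpgk construct for 51 h, was accompanied by higher Insig2 and Hmgcs1. This comparison shares its control libraries with dTAG-13 against control. The p-values printed for its genes make no allowance for that, nor for how the list was chosen. Against control, 4 of the 36 genes rose and 8 fell, where 14.8% of all genes were called higher and 18.7% lower. Fasn is among the 8 that fell, and its value is given below as a description only. The median log2 fold change was -0.020 for the 36 genes and -0.010 for all genes. The groups did not overlap for 13 of the 36 genes, and for 43.9% of all genes tested. With library size as the only scaling, the split over all genes turned from 1917 higher and 2414 lower to 2546 higher and 1607 lower. The same 36 genes then had 5 higher and 6 lower. With the length and GC correction 4 of the 36 were higher and 11 lower, and the split over all genes was 1559 higher and 2988 lower.

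Fasn was at 693, 702 and 717 CPM in control and 573, 580 and 565 CPM with doxycycline, without overlap. Its log2 fold change was -0.30 ± 0.024, or 0.814 of control. No p-value is given, because the control libraries also served the comparison in which Fasn was known to be low. Acly, at 554, 560 and 554 CPM in control and 499, 486 and 498 CPM with doxycycline, fell by 0.17 ± 0.021 (adjusted p = 1.34e-08). Acaca fell by 0.14 ± 0.035 (adjusted p = 0.00104) and Elovl6 by 0.14 ± 0.034 (adjusted p = 0.000783). Acly, Acaca and Elovl6 were, beside the described Fasn, the fatty acid genes called lower. Scd2 and Me1 rose, Scd2 by 0.16 ± 0.020 (adjusted p = 3.3e-08) from 2037, 2052 and 2143 CPM to 2326, 2313 and 2314 CPM. Me1 rose by 0.17 ± 0.025 (adjusted p = 1.27e-06). Scd1, the paralog of Scd2, did not pass at 0.010 ± 0.025, and the Scd2 to Scd1 ratio per kilobase was 4.37 ± 0.0422 in control and 4.84 ± 0.0772 with doxycycline.

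Insig2 had the largest rise, by 0.33 ± 0.056 (adjusted p = 7.51e-06), from 20.3, 21.9 and 19.7 CPM in control to 27.2, 25.8 and 25.0 CPM. Hmgcs1 rose by 0.19 ± 0.034 (adjusted p = 2.16e-05), from 78.5, 82.7 and 78.8 CPM to 90.1, 89.8 and 93.7 CPM. Neither gene overlapped between the groups. Insig1, at -0.064 ± 0.038, did not pass, but did with the length and GC correction (-0.090, adjusted p = 0.043). The Insig1 to Insig2 ratio per kilobase was 3.68 ± 0.133 in control and 2.80 ± 0.211 with doxycycline. Srebf1 (0.002 ± 0.026), Srebf2 (-0.019 ± 0.027) and Scap (-0.087 ± 0.036) did not pass. Scap passed without doxycycline replicate 2 (-0.13), or without doxycycline plus dTAG-13 replicate 2 (-0.087) or 3 (-0.090), and with the length and GC correction (-0.090, adjusted p = 0.0312). The largest uncalled positive value was that of Nsdhl, a sterol dehydrogenase, at 9.16, 12.1 and 11.5 CPM in control and 12.5, 12.6 and 11.9 CPM with doxycycline (0.18 ± 0.089, adjusted p = 0.12). Without control replicate 2 Nsdhl passed, at 0.28. Its low control replicate 1 stood apart from the other libraries, and the groups overlap.

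Of the 11 genes from squalene to cholesterol, 3 fell and none rose with doxycycline alone, where 18.7% of all genes were called lower and 14.8% higher. Lss was at 64.6, 59.7 and 58.3 CPM in control and 53.4, 52.3 and 56.5 CPM with doxycycline, and fell by 0.17 ± 0.044 (adjusted p = 0.00185). Msmo1 fell by 0.15 ± 0.032 (adjusted p = 0.00018), from 99.5, 108 and 106 CPM to 92.3, 92.6 and 97.0 CPM. Neither overlapped between the groups. Sqle fell by 0.067 ± 0.027 (adjusted p = 0.0466), and the sterol carrier Stard4 by 0.11 ± 0.044 (adjusted p = 0.0471), both just past the threshold. Each of the calls of Sqle and Stard4 was lost with DESeq2, without the filter or with most single libraries left out.

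**Figure D5:**
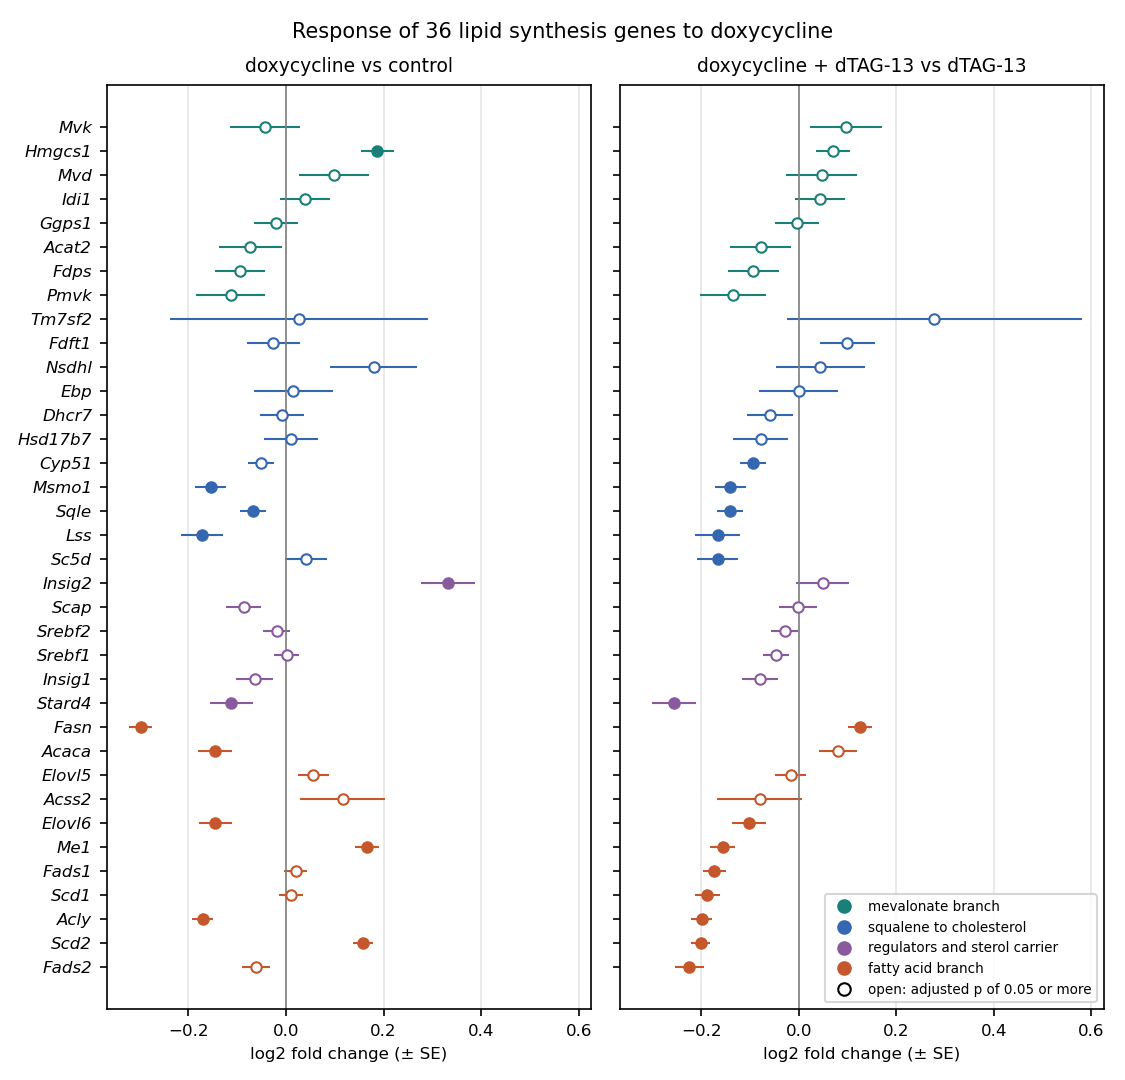
Log2 fold change with its standard error for each of the 36 genes in doxycycline against control (left) and doxycycline plus dTAG-13 against dTAG-13 (right), coloured by role, with open circles at an edgeR adjusted p of 0.05 or more. Most values lie between -0.3 and 0.3, with Fasn at -0.30 on the left and 0.13 on the right.

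Between cells that all received dTAG-13, values were mostly lower with doxycycline. This comparison shares its dTAG-13 libraries with dTAG-13 against control, and its p-values also make no allowance for that. In doxycycline plus dTAG-13 against dTAG-13, 1 of the 36 genes rose and 13 fell, where 10.7% of all genes were called higher and 9.64% lower. The gene that rose was Fasn, whose value is given below as a description only. The median was -0.078 for the 36 genes and -0.001 for all genes. With library size as the only scaling, the split over all genes went from 1386 higher and 1244 lower to 926 higher and 2132 lower. The 36 genes then had 1 higher and 15 lower. By role, 7 of 11 fatty acid genes, 5 of 11 from squalene to cholesterol, 1 of 6 regulators and carrier, and none of 8 mevalonate genes fell. With the length and GC correction 2 of the 36 genes were higher and 14 lower, where 9.89% of all genes were higher and 9.33% lower. Among the lower were the mevalonate genes Fdps (-0.15, adjusted p = 0.0256) and Pmvk (-0.20, adjusted p = 0.025).

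Stard4 had the most negative value. It was at 47.1, 46.5 and 46.1 CPM with dTAG-13 and 38.6, 37.5 and 40.7 CPM with both agents, a fall of 0.26 ± 0.045 (adjusted p = 3.31e-05). Fads2 fell by 0.22 ± 0.030 (adjusted p = 2.5e-07), from 118, 118 and 119 CPM to 101, 102 and 101 CPM. Scd2 fell by 0.20 ± 0.020 (adjusted p = 2.04e-10), from 1806, 1876 and 1849 CPM to 1590, 1651 and 1569 CPM. None of these 3 genes overlapped between the groups. The groups did not overlap for 19 of the 36 genes, and for 34.3% of all genes tested. Acly fell by 0.20 ± 0.021, Scd1 by 0.19 ± 0.025, Fads1 by 0.17 ± 0.024, Me1 by 0.16 ± 0.025 and Elovl6 by 0.10 ± 0.035. Sc5d and Lss each fell by 0.17, Sqle and Msmo1 by 0.14 and Cyp51 by 0.094. Lss lost its call without doxycycline plus dTAG-13 replicate 2 (-0.12) or dTAG-13 replicate 2 (-0.14). Elovl6 lost its call with the length and GC correction (-0.071, adjusted p = 0.14), with DESeq2 (-0.096), without the filter (-0.091), in a fit on only the groups compared (-0.099) and when replicate 1 (-0.098) or 2 (-0.075) of the group with both agents, or dTAG-13 replicate 2 (-0.070), was left out.

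Fasn was the only gene called higher. Its value, 0.13 ± 0.025, is a description, since the dTAG-13 libraries also served the comparison known when the genes were listed. It was at 273, 288 and 290 CPM with dTAG-13 and 302, 322 and 304 CPM with both agents, so the groups lay close without overlapping. Acaca, with 0.081 ± 0.039, did not pass, and was called with the length and GC correction, at 0.10 (adjusted p = 0.0469). Tm7sf2 (0.28 ± 0.30) and Fdft1 (0.10 ± 0.056) had the other large positive values and did not pass. Fdft1 was at 30.9, 30.2 and 30.1 CPM with dTAG-13 and at 35.5, 31.3 and 31.3 CPM with both agents, 1 library being high. Insig1, Insig2, Srebf1, Srebf2, Scap and Hmgcs1 did not pass, with values from -0.080 to 0.070. Insig1 passed without doxycycline plus dTAG-13 replicate 3, at -0.12.

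The difference between the dTAG-13 fold changes, with doxycycline minus without, holds the comparison already known and is given as values. It was past the threshold upward for 2 of the 36 genes and downward for 7, where 13.2% of all genes were higher and 9.64% lower. Fasn had 0.42 ± 0.035 and Acaca 0.23 ± 0.052, so dTAG-13 values were less negative with doxycycline. Scd2 had -0.36 ± 0.028, Me1 -0.32 ± 0.036, Insig2 -0.28 ± 0.078 and Sc5d -0.21 ± 0.060. Scd1, Fads1 and Fads2 lay from -0.20 to -0.16. With library size as the only scaling 14 of the 36 genes were lower, and the split over all genes went from 1705 higher and 1245 lower to 818 higher and 2424 lower. With the length and GC correction it was 1942 higher and 880 lower.

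Other genes of the pathways were described from lists set up with earlier results of these data known. The counts of each list stand beside these shares of all genes called higher and lower. They were 30.7% and 33.4% with dTAG-13 in doxycycline-treated cells, and 14.8% and 18.7% with doxycycline alone. Between the groups that received dTAG-13 they were 10.7% and 9.64%, and in dTAG-13 against control 30% and 32.1%. The lists were not tested against these shares. Of 15 genes for processing the factors and for sterol-regulated degradation, 6 rose and 7 fell with dTAG-13 in doxycycline-treated cells. Vcp, the ATPase that pulls ubiquitinated proteins from membranes, had the largest change there, from 252, 255 and 260 CPM to 167, 166 and 173 CPM. It fell by 0.60 ± 0.028 (adjusted p = 1.69e-21), and its corrected value of -0.55 was close to that. With doxycycline alone 1 of these 15 rose and 3 fell, Vcp by 0.21 ± 0.027. In doxycycline plus dTAG-13 against dTAG-13 none rose and 2 fell, with Sec24a, a coat protein of the vesicles that leave the endoplasmic reticulum, at -0.18 ± 0.046. In dTAG-13 against control, the described comparison, 6 were higher and 6 lower, and Vcp was at -0.75 ± 0.027.

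Of 5 oxysterol genes 4 were tested, and 2 of them were higher with doxycycline alone. Hsd3b7, a bile acid enzyme, was at 5.77, 4.19 and 4.44 CPM in control and 8.32, 7.87 and 9.15 CPM with doxycycline, a rise of 0.81 ± 0.11 (adjusted p = 1.59e-07). Cyp27a1, the sterol 27-hydroxylase, rose by 0.83 ± 0.26 (adjusted p = 0.00975) from 0.816, 0.580 and 0.958 CPM to 1.46, 1.3 and 1.42 CPM, a call lost without control replicate 2 (0.66). Both genes were low, and both were without overlap. With dTAG-13 in doxycycline-treated cells Hsd3b7 rose by 0.45 ± 0.098 (adjusted p = 0.00011), and the other 3 did not pass. Between the groups that received dTAG-13 none of the 4 passed. Without doxycycline all 4 were higher with dTAG-13, and Cyp46a1 had the largest value, 1.15 ± 0.50, at no more than 0.669 CPM in any library. Ch25h, which makes 25-hydroxycholesterol, was at 2.01, 2.54 and 2.41 CPM in control and 2.72 to 3.2 CPM in the 6 libraries with dTAG-13. Its log2 fold change was 0.27 ± 0.16 with doxycycline (adjusted p = 0.15) and 0.36 ± 0.16 without it. With DESeq2, Ch25h and Cyp46a1 were no longer past the threshold without doxycycline.

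Of 8 genes of the liver X receptors and sterol efflux, 5 were tested. With doxycycline alone 3 of them were higher and none lower. Abca1, the cholesterol exporter, was at 6.21, 9.08 and 8.62 CPM in control and 12.2, 12.6 and 13.3 CPM with doxycycline. Abca1 rose by 0.67 ± 0.096 (adjusted p = 4.68e-07). With dTAG-13 in doxycycline-treated cells 4 of 5 fell, Abca1 by 0.46 ± 0.096 (adjusted p = 6.27e-05) and Rxra, the partner receptor, by 0.62 ± 0.048 (adjusted p = 9.79e-15). The corrected values were -0.032 for Abca1, no longer past the threshold, and -0.29 for Rxra. Between the groups that received dTAG-13, 1 rose and 1 fell, Abca1 with 0.34 ± 0.10 (adjusted p = 0.0152). That Abca1 call was lost without doxycycline plus dTAG-13 replicate 3 (0.29) or dTAG-13 replicate 3 (0.32). Without doxycycline 2 were lower with dTAG-13 and none higher, with Rxra at -0.67 ± 0.046.

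Sterol uptake, storage and transport had 13 of 14 genes tested. With dTAG-13 in doxycycline-treated cells 3 rose and 6 fell, and Osbp, the oxysterol binding protein, fell by 0.36 ± 0.034 (adjusted p = 3.91e-12, corrected -0.17). With doxycycline alone 5 rose and 1 fell, and the sterol carrier Gramd1a rose by 0.27 ± 0.049 (adjusted p = 2.24e-05). Between the groups that received dTAG-13, 2 rose and 4 fell, among them Soat1, which esterifies cholesterol, by 0.17 ± 0.042 (adjusted p = 0.00685). Without doxycycline 6 were higher and 4 lower with dTAG-13, with Gramd1a at 0.37 ± 0.048.

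Of 11 further sterol, isoprenoid and prenylation enzymes, 4 rose and 3 fell with dTAG-13 in doxycycline-treated cells. Coq2, of ubiquinone synthesis, was at 52.2, 48.9 and 51.1 CPM with doxycycline and 73.9, 70.2 and 73.7 CPM with both agents. The groups did not overlap, and Coq2 had the largest change of the list there, a rise of 0.52 ± 0.039 (adjusted p = 7.22e-15) with a corrected value of 0.40. With doxycycline alone 5 of the 11 were lower and none higher. Without doxycycline 4 were higher and 5 lower with dTAG-13, with Coq2 at 0.36 ± 0.039.

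Of 23 further fatty acid and glycerolipid enzymes 22 were tested, and 6 rose and 6 fell with dTAG-13 in doxycycline-treated cells. Lpin1, the phosphatidate phosphatase of glycerolipid synthesis, was at 21.5, 19.6 and 20.2 CPM with doxycycline and 12.5, 13.6 and 11.8 CPM with both agents. It fell by 0.70 ± 0.071 (adjusted p = 2.25e-11), and by 0.40 with the correction. With doxycycline alone 6 rose and 5 fell, and Mid1ip1, which promotes acetyl-CoA carboxylase polymerisation, fell by 0.32 ± 0.048 (adjusted p = 1.26e-06). Between the groups that received dTAG-13, 1 rose and 1 fell, and the acyl-CoA synthetase Acsl5 rose by 0.10 ± 0.029 (adjusted p = 0.00831), a call lost without doxycycline plus dTAG-13 replicate 2 (0.069). Without doxycycline 9 were higher and 8 lower with dTAG-13, with the elongase Elovl7 at 0.49 ± 0.092.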

How the data were processed

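The authors deposited a table of raw read counts per Entrez gene in 12 poly(A) RNA libraries, with no normalization. Per the submitters' processing notes, bcl2fastq 2.17, featureCounts and mm10 were used. The sources used here do not give the strand setting or the handling of multi-mapping reads. Symbols came from RefSeq GRCm38.p6 (25275 IDs) and GENCODE M21 (18 IDs), and 1886 IDs, with 2.097% of reads, had none.

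Genes were filtered with filterByExpr and scaled by TMM (factors 0.9647 to 1.0349). All 12 libraries entered a single edgeR 4.0.16 fit (R 4.3.3) with a mean for each group. Each contrast used edgeR's robust quasi-likelihood F test, two-sided, with Benjamini-Hochberg adjustment over 12910 genes, and genes were called at an adjusted p under 0.05. Standard errors came from the fold change and F. Replicate libraries differed by 2.47 to 9.225 times the sampling noise (chi-square per degree of freedom), so none was counted as a duplicate.

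The 36 genes, the other gene lists and the rules were chosen with earlier results of these data known. Values per library are given for the 3 largest positive and negative fold changes of each pairwise comparison and for Srebf1, Srebf2, Scap, Insig1, Insig2, Fasn, Hmgcs1, Sqle, Scd1 and Scd2, and for further genes picked after their values were seen. In each other list the called gene with the largest change was named, with Ch25h, except a gene that is not reported here. Promoters followed the same order of fold changes.

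Alternatives were RLE factors, DESeq2 1.42.0, no filter, 1 CPM in 3 libraries, only the groups compared, the replicate block, library size only, each library left out, and a length and GC correction. That correction fitted splines with 5 degrees of freedom to each library's deviation of log2 CPM. Lengths are those of the longest protein-coding GENCODE transcript, where a RefSeq transcript had been planned. The code was tested on simulated data.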

Additional observations from a re-analysis of the deposited data

Results flagged for a closer look

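The fold change to dTAG-13 differed between cells with and without doxycycline for 9 of the 36 genes, by the interaction term of the edgeR fit. Over all genes tested the share was 22.9%, close to that of the 36 genes. The values below are the log2 fold change with doxycycline minus that without it. They hold the comparison in which Fasn was known to be low when the genes were listed, so they are given as a description.

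The difference was positive for Fasn (0.42) and Acaca (0.23), the genes of malonyl-CoA and palmitate synthesis. It was negative for the desaturases Scd2 (-0.36), Scd1 (-0.20), Fads1 (-0.19) and Fads2 (-0.16). Me1 had -0.32, Insig2 had -0.28 and Sc5d had -0.21. Of these 9, Sc5d lost its call with the length and GC correction, at -0.14.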

How the results depend on the processing

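The limits of these values are those of 3 technical libraries a group and of a transcript length trend that moves with dTAG-13. The same replicate numbers did not pair the libraries. Deviations of same-numbered libraries correlated from -0.021 to 0.08 over 18 pairs, those of different numbers from -0.061 to 0.066 over 36 pairs, and 4 of 12 libraries correlated best with their own number. With the replicate block, 8 of the 36 genes were higher and 18 lower with dTAG-13 in doxycycline-treated cells, and 4 were higher and 7 lower with doxycycline alone. With doxycycline alone the block lost the calls of Sqle and Stard4 and gained that of Scap (-0.088). Between the groups that received dTAG-13, 1 was higher and 13 lower with the block. Over all genes, the block called 30.4% higher and 33.2% lower with dTAG-13 in doxycycline-treated cells. The shares were 14.4% and 17.9% with doxycycline alone, and 10.2% and 9.07% between the groups that received dTAG-13.

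Sign turns under the length and GC correction are listed for genes called before or after it, and genes called in neither fit also turned. In dTAG-13 against control the listed turns were Idi1 (-0.023), Fdps (-0.12), Scd2 (0.039) and Lpin1 (0.007). In doxycycline-treated cells they were Fdps (-0.19), Lss (0.036), Srebf2 (0.032), Elovl6 (0.094) and Soat1 (0.24). The correction also gave 2 genes higher, in place of 1, in doxycycline plus dTAG-13 against dTAG-13. With library size as the only scaling, Fads1 in dTAG-13 against control turned to 0.066, and 14 genes in place of 7 were lower in the difference of dTAG-13 fold changes. That scaling moved the median of all genes in dTAG-13 against control to 0.11, so the 0.066 of Fads1 is below the median. The cause was not tested.

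With each library left out in turn, dTAG-13 in doxycycline-treated cells gave 7 to 8 genes higher and 17 to 18 lower. Doxycycline alone gave 4 to 5 higher and 6 to 9 lower, and 1 was higher and 11 to 14 lower between the groups that received dTAG-13. The described dTAG-13 against control had 10 to 11 higher and 13 to 15 lower. RLE size factors, DESeq2, no filter, a filter of 1 CPM in 3 libraries and a fit on only the groups compared left each of these counts within 1.5 times its value. For low genes such as Tm7sf2, with 16 to 53 reads, counting error limits what could be detected.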
